A study of Homo sapiens with 8 samples.

Results

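The cyclic nucleotide signalling enzymes described here are 32 genes of the 60286 in the deposited matrix. They are a list of named genes, and all 32 were found: 9 adenylyl cyclases (ADCY1 to ADCY9), 17 phosphodiesterases (PDE1A, PDE1B, PDE1C, PDE2A, PDE3A, PDE3B, PDE4A, PDE4B, PDE4C, PDE4D, PDE7A, PDE7B, PDE8A, PDE8B, PDE9A, PDE10A and PDE11A), 2 catalytic subunits of protein kinase A (PRKACA and PRKACB) and 4 of its regulatory subunits (PRKAR1A, PRKAR1B, PRKAR2A and PRKAR2B). They were measured by single-cell RNA sequencing in neural cultures. All derive from H1, a widely used line of human embryonic stem cells. The study grew such cultures flat (2-D) or as organoids (3-D) and asked what cells they hold and how those cells respond to dopamine, cocaine and morphine. All cells went through 1 split-pool barcoding experiment that was sequenced as 8 sublibraries, so the unit compared here is the culture tag carried in each cell's name, of which there were 46.

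The tags fell into 9 arrangements, named here as in the data. Tags named 2DMono and 3DMono each comprised 2 tags with AcDop, 2 with AcMor and 2 with Vehic in the name. Tags named 2DCocu comprised 4 AcCoc, 4 AcMor and 4 Vehic tags. Tags named 3DFusi comprised 4 AcCoc, 3 AcMor and 3 Vehic tags. The other 12 tags carry Proto in the name and no treatment: 2DProto2Fjo, 2DProto3Wu and 2DProto4Nic with 2 tags each, and 3DProto1For and 3DProto2Xia with 3 each. The labels name dopamine, cocaine, morphine and untreated cultures without tying them to these letters, and they give no dose, no exposure time and no culture age. All cultures share 1 cell line, organoids were pooled for dissociation, and nothing states that tags of a group were separate cultures. The p-values therefore measure the spread between tags, which may be technical.

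Adenylyl cyclases make cyclic AMP from ATP. Receptors coupled to stimulatory G proteins, such as the D1 dopamine receptor, raise their activity, and receptors coupled to inhibitory G proteins, such as the D2 dopamine and mu opioid receptors, lower it. Phosphodiesterases break cyclic AMP, cyclic GMP or both, and so set how long and how far the signal reaches. Cyclic AMP binds the regulatory subunits of protein kinase A, which release the catalytic subunits to phosphorylate channels, receptors and the transcription factor CREB. In the brain, ADCY5 and PDE10A are best known from striatal medium spiny neurons, and the calcium-activated ADCY1 and ADCY8 from synaptic plasticity.

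The matrix held 43693 cells, 317 to 1959 per tag, and the summed counts of a tag ran from 3624668 to 58777178. Levels are given as CPM, counts of a gene per 1000000 counts of its tag. Because of the split-pool design 2393 of 41192 distinct barcodes occurred in more than 1 sublibrary, 0 of them in more than 1 tag. Of the 32 members, 27 exceeded 3 CPM in every tag and 22 exceeded 10 CPM. ADCY4 never exceeded 3.19 CPM and was tested in the comparisons of 3DFusi that hold no 2DCocu tags. ADCY4, ADCY6, PDE4C, PDE11A and PRKAR1B passed the test in no comparison given here. Cells were clustered without the members and named from fixed markers: 6673 cells in 3 clusters were excitatory neuron-like and 5773 in 4 clusters GABAergic neuron-like, while 15 clusters with 37.0% of cells stayed unnamed. Medium spiny neuron markers summed to at most 45.5 CPM in any treated tag, against 78.8 to 339.7 CPM for the excitatory markers. Tags labelled 3DProto1For and 3DProto2Xia went against their names. 3DProto1For3 correlated at 0.970 and 0.973 with 3DProto2Xia1 and 3DProto2Xia3, but at 0.902 and 0.878 with the other two 3DProto1For tags. 3DProto2Xia2 correlated at 0.964 with 3DProto1For2 and at 0.896 and 0.884 with the other two 3DProto2Xia tags (log2 levels over 11908 genes). These tags enter no test.

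Protein kinase A feeds back on transcription through CREB, whose full palindromic site reads TGACGTCA on both strands. The promoters of 3 members that differed between 3-D and 2-D cultures hold that site, and are shown because those genes are described next. Each line is 300 bases of RefSeq sequence on GRCh38.p14, plus strand, from 250 bases before to 50 after an annotated start, with the site in capitals.
PDE7B, chr6:135851451-135851750: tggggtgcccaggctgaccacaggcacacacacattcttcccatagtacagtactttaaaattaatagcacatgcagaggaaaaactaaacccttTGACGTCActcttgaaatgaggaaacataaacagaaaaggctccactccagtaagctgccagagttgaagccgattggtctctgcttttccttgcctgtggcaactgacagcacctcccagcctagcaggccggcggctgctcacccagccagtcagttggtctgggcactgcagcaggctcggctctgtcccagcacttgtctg
PRKAR1A, chr17:68512180-68512479: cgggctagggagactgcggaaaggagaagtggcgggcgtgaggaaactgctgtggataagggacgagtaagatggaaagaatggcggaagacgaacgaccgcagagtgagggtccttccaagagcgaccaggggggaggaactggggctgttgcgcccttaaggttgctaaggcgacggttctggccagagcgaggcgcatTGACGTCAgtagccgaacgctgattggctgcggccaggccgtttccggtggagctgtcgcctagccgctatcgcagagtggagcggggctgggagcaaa
PDE4A, chr19:10416523-10416822: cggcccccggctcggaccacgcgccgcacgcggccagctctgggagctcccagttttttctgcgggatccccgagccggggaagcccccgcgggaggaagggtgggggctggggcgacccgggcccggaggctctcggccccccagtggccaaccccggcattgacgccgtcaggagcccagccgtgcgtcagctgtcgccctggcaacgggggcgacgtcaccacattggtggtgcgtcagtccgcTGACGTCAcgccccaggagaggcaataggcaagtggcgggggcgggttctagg
Of the 84 RefSeq windows that matched 26 of the 32 members by symbol, 4 windows of these 3 genes hold the site, 2 of them overlapping at PRKAR1A. Over all 35116 windows of this length, 1.85% hold it. The match begins at -155 from the start in PDE7B, at -49 in PRKAR1A and at -3 in PDE4A. It is a match of letters and no measure of CREB binding.

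Between 3-D and 2-D cultures, the cyclase ADCY8 and the phosphodiesterase PDE1C were lower in 3-D in both pairs of arrangements. The regulatory subunit PRKAR1A was higher in both, though its call in single cultures was lost in 9 of 17 alternative settings. PDE1A and PDE4A went opposite ways. The question was which members differ with culture format, in the single cultures (3DMono against 2DMono) and in the joined ones (3DFusi against 2DCocu). In single cultures 12 of 31 members tested passed an adjusted p of 0.05 in edgeR's quasi-likelihood test, 7 higher and 5 lower in 3DMono, or 38.7%, where 38.8% of all 20190 genes tested passed, 18% higher and 20.8% lower. In joined cultures 15 of 31 passed, 5 higher and 10 lower in 3DFusi, or 48.4%, where 49.4% of all 20930 genes passed, 26.7% higher and 22.7% lower. Both shares are near the background, so the number of members is not a result about them. The median log2 fold change was 0.079 over the members and 0.028 over all genes in single cultures, and -0.079 and 0.049 in joined cultures. Called in both comparisons were 6 members, that is 6 of the 12, 6 of the 15 and 19.4% of the 31 tested in both, where 24.9% of 19938 genes were called in both, so this count too is no result about the members. ADCY8, PDE1C, PDE4B and PRKAR1A had the same sign in both, and PDE1A and PDE4A did not. Over all genes called in both, 93% had the same sign. The joined call of PDE4A was lost when 3DFusi tags of 1 number were added up, which left 5 members called in both (16.1%, against 21.9% of all genes). The comparisons share no tags. The Proto tags, which enter neither comparison, had the reverse order for ADCY8. It ran at 31.5 to 61.8 CPM in their 3-D tags and 3.75 to 18.2 CPM in their 2-D tags. PDE1C overlapped there, at 54.97 to 207 CPM in 3-D and 67.7 to 103 CPM in 2-D tags. The lower levels in 3-D are thus described for the treated arrangements alone.

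ADCY8, a cyclase stimulated by calcium and calmodulin (chromosome 8, 130780301 to 131040909 on GRCh38.p14), had the largest fall of any member in single cultures. Its lowest, median and highest levels were 9.78, 14.1 and 15.8 CPM in 3DMono and 43.2, 78.3 and 86.9 CPM in 2DMono. No 3DMono tag reached the lowest 2DMono tag, and the log2 fold change was -2.65 ± 0.17 (SE, adjusted p = 4e-08, n = 6 and 6). In joined cultures the levels were 7.35, 23.03 and 33.7 CPM in 3DFusi and 52.6, 76.5 and 118 CPM in 2DCocu, again with no overlap, and the change was -1.89 ± 0.19 (adjusted p = 2.6e-08, n = 10 and 12). ADCY1, also stimulated by calcium and calmodulin, rose in 3DMono by 0.73 ± 0.15 (adjusted p = 0.0013), from 30.8 to 46.6 CPM to 55.9 to 89.8 CPM. Its change in 3DFusi was -0.09 ± 0.12 (adjusted p = 0.53). ADCY5, which calcium and inhibitory G proteins hold down, rose in 3DMono by 0.52 ± 0.15 (adjusted p = 0.013) and had 0.14 ± 0.10 in 3DFusi (adjusted p = 0.25). ADCY2, a cyclase that G protein beta-gamma subunits can stimulate, had -0.23 ± 0.11 in 3DMono (adjusted p = 0.097) and rose in 3DFusi by 0.27 ± 0.09 (adjusted p = 0.017), a call lost with Vehic tags alone, without called doublets and with same-numbered 3DFusi tags added up. ADCY3 fell in 3DFusi by 0.35 ± 0.11 on the log2 scale. In sums over whole tags, fewer cells of a type and less RNA per cell cannot be told apart.

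**Figure D1:**
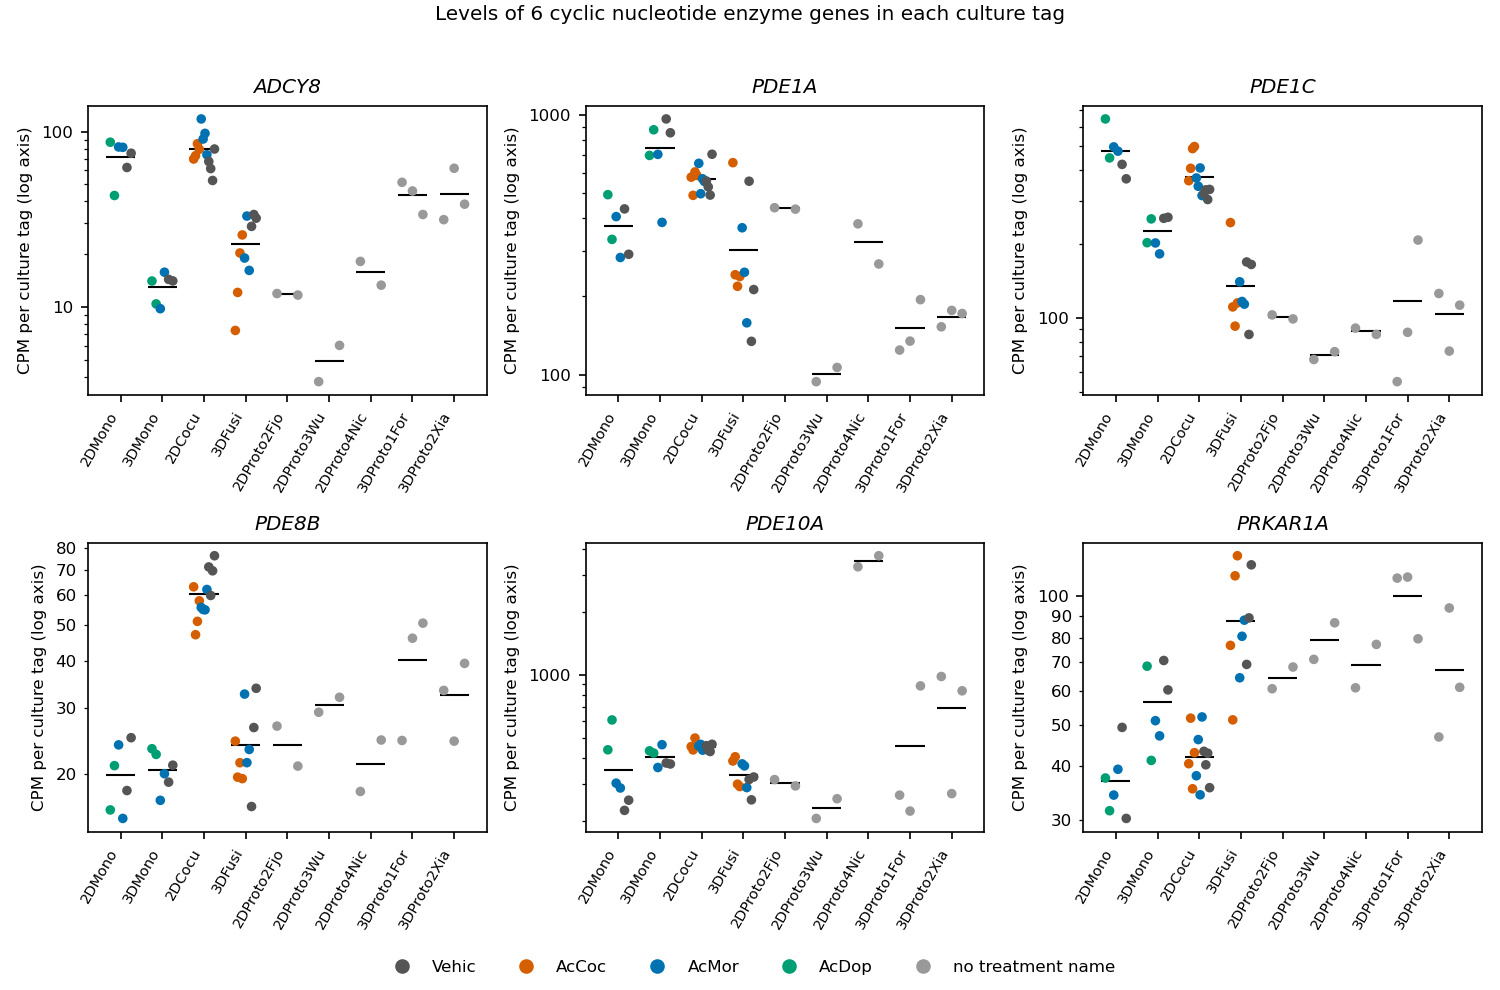
Level of ADCY8, PDE1A, PDE1C, PDE8B, PDE10A and PRKAR1A in each of the 46 culture tags, in CPM on a log axis, by arrangement. Each point is a tag, coloured by the treatment letters in its name, and each line is the mean of the arrangement. ADCY8 is lower in 3DMono and 3DFusi than in 2DMono and 2DCocu with no overlap, PDE8B is high in 2DCocu, and PDE10A reaches 3296 and 3723 CPM in the 2DProto4Nic tags.

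Among the PDE1 enzymes, which calcium and calmodulin activate and which break both cyclic nucleotides, PDE1C fell with 3-D format in both pairs. Its lowest, median and highest levels were 182, 228 and 257 CPM in 3DMono and 369, 463 and 647 CPM in 2DMono, a change of -1.27 ± 0.14 (adjusted p = 6.5e-06). In joined cultures they were 85.6, 116 and 245 CPM in 3DFusi and 304, 353 and 499 CPM in 2DCocu, a change of -1.52 ± 0.17 (adjusted p = 1.5e-07). Neither pair overlapped. PDE1A (chromosome 2, 182140041 to 182716797) ran at 386, 779 and 965 CPM in 3DMono and 282, 369 and 493 CPM in 2DMono, and rose by 0.79 ± 0.19 (adjusted p = 0.005) with overlap. In joined cultures it ran at 134, 241 and 655 CPM in 3DFusi and 490.0, 562 and 705 CPM in 2DCocu, and its change was -0.95 ± 0.24 (adjusted p = 0.0026), again with overlap. The same gene thus had opposite signs in the 2 pairs, a difference that was not itself tested over whole tags. PDE1B, best known from the striatum, had 0.51 ± 0.30 and -0.06 ± 0.25 (adjusted p = 0.19 and 0.86).

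The cyclic AMP-specific PDE4 enzymes are the targets of rolipram. PDE4D fell in 3DMono by 1.00 ± 0.16 on the log2 scale (adjusted p = 0.0002), from 1025 to 1974 CPM in 2DMono to 658 to 923 CPM, and had -0.21 ± 0.11 in 3DFusi (adjusted p = 0.13). PDE4B fell in both, by 0.47 ± 0.14 (adjusted p = 0.015) and 0.48 ± 0.16 (adjusted p = 0.017). The first call was lost without called doublets and without 3DMono AcDop replicate 2, and the second without a filter on low counts. In 3DMono PDE4A fell by 0.60 ± 0.17, whereas 3DFusi had a rise of 0.35 ± 0.13 (adjusted p = 0.013 and 0.025). The call of that rise was lost with same-numbered 3DFusi tags added up (edgeR, adjusted p = 0.12). PDE3A and PDE3B, which break cyclic AMP and are inhibited by cyclic GMP, rose in 3DMono by 1.11 ± 0.13 and 0.82 ± 0.17 (adjusted p = 1.6e-05 and 0.002). In 3DFusi their changes were 0.19 ± 0.16 and -0.04 ± 0.14 (adjusted p = 0.36 and 0.84).

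In joined cultures the fold changes of PDE7B and ADCY8 were the largest and close in size. PDE7B is a cyclic AMP-specific enzyme. Its lowest, median and highest levels were 6.57, 66.0 and 152 CPM in 3DFusi and 8.44, 13.3 and 23.2 CPM in 2DCocu, so most 3DFusi tags were higher while the groups overlapped, and the change was 1.98 ± 0.36 (adjusted p = 0.0001). The 3DFusi tags split by the number in their names. PDE7B was at 15.5 to 24.1 CPM in the 3 tags numbered 1 and 6.57 CPM in the tag numbered 2, against 73.6 to 152 and 59.0 to 93.5 CPM in those numbered 3 and 4. Tags of 1 number deviated together, so they were also added up to 1 library each, an alternative added after the data were seen. With these 4 libraries against 12 2DCocu tags the change was 1.73 ± 0.35 (edgeR, adjusted p = 0.00054). Mesenchymal-like cells moved with it. They made up 3.90 to 50.5% of cells in 3DFusi and 1.98 to 7.63% in 2DCocu, and the summed mesenchymal markers ran from 224 to 4498 and from 545 to 1946 CPM, 7 of 8 with a higher mean in 3DFusi. The 3DFusi tag with most such cells, at 50.5%, had 152 CPM of PDE7B, and the one with fewest, at 3.90%, had 6.57. Pooled over tags, PDE7B was at 233 CPM in mesenchymal-like cells of 3DFusi and at most 16.2 CPM in any other named class there. The part of these cells in the PDE7B difference was not tested. PDE8B, also specific for cyclic AMP, ran at 16.4, 22.4 and 33.9 CPM in 3DFusi and 47.1, 59.0 and 76.5 CPM in 2DCocu. The groups did not overlap and the change was -1.40 ± 0.11 (adjusted p = 1.1e-09). PDE10A, which breaks both cyclic nucleotides, ran at 252, 319.8 and 405 CPM in 3DFusi and 429.5, 455 and 498 CPM in 2DCocu, with no overlap and a change of -0.53 ± 0.09 (adjusted p = 4.5e-05). Its change between 3DMono and 2DMono was 0.10 ± 0.15 (adjusted p = 0.65). With Vehic tags alone that change was 0.45 ± 0.11 and passed (edgeR, adjusted p = 0.038). The cyclic GMP-specific PDE9A fell in 3DFusi by 0.69 ± 0.13 on the log2 scale (adjusted p = 0.00013).

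Of the protein kinase A subunits, PRKAR1A, a ubiquitous regulatory subunit, ran at 51.4, 84.2 and 124 CPM in 3DFusi and 34.3, 41.8 and 52.2 CPM in 2DCocu, and rose by 0.95 ± 0.12 (adjusted p = 8.9e-07), the lowest 3DFusi tag lying inside the 2DCocu range. With same-numbered 3DFusi tags added up the rise was 0.84 ± 0.14 (adjusted p = 8.3e-05). The lowest tag was the one with fewest mesenchymal-like cells, and the tag with most had 112 CPM. Pooled over the tags of 3DFusi, PRKAR1A was at 152 CPM in mesenchymal-like cells and 52.3 to 80.2 CPM in the other named classes, and the part of these cells in the difference was not tested. In single cultures its rise was 0.40 ± 0.15 (adjusted p = 0.048), named here after its value was seen, and it was lost in 9 of 17 alternative settings. PRKACB, a catalytic subunit, had 0.26 ± 0.11 in 3DMono (adjusted p = 0.064) and fell in 3DFusi by 0.22 ± 0.08 (adjusted p = 0.03), a call lost in 13 of 28 settings. The neuronal regulatory subunits did not pass: PRKAR1B had -0.19 ± 0.11 and -0.12 ± 0.08, and PRKAR2B 0.01 ± 0.13 and 0.10 ± 0.13. With Vehic tags alone PRKAR2B passed in joined cultures, at 0.53 ± 0.18 (edgeR, adjusted p = 0.046). The other called members, chosen after their values were seen, were PDE8A at 0.30 ± 0.10 in single cultures, and ADCY9 at -0.25 ± 0.07 and PRKAR2A at 0.21 ± 0.08 in joined cultures. PDE8A was lost in 5 of 17 settings and PRKAR2A in 12 of 28. With Vehic tags alone 7 of the 12 calls in single cultures were lost, those of ADCY1, ADCY5, PDE4A, PDE4B, PDE4D, PDE8A and PRKAR1A. In joined cultures 8 of the 15 were lost, those of ADCY2, ADCY3, ADCY9, PDE1A, PDE4A, PDE4B, PRKACB and PRKAR2A. With same-numbered 3DFusi tags added up 9 of 31 members passed, 2 higher and 7 lower, where 40.3% of all genes passed. The calls of ADCY2, ADCY3, ADCY9, PDE4A, PRKACB and PRKAR2A were lost (adjusted p = 0.46, 0.11, 0.065, 0.12, 0.17 and 0.21). The class mix moved with format too. Progenitor-like cells made up 13.8 to 15.6% of cells in 3DMono and 0 to 0.946% in 2DMono, and 0.737 to 18.2% in 3DFusi and 0% in 2DCocu. Astrocyte-like cells made up 4.15 to 4.98% in 2DMono, 0.403 to 1.59% in 2DCocu and 0% in both 3-D arrangements. Cells of the neuron-like class, named neither excitatory nor GABAergic, made up 0.129 to 7.43% in 3DFusi and 4.38 to 14.7% in 2DCocu. Cluster 17 of that class had high levels of ADCY8, PDE3A and PDE10A, given further on. ADCY8 and PDE10A were lower in 3DFusi, and PDE3A did not pass there. The part of this cluster was not tested. The progenitor markers themselves were split, 4 of 8 having a higher mean in 3DMono and 5 of 8 in 3DFusi. Pooled over the tags of 3DFusi, progenitor-like cells had 428 CPM of PDE3A and 1115 CPM of PDE4B. GABAergic neuron-like cells made up 4.60 to 34.6% in 3DMono and 7.89 to 21.2% in 2DMono. GABAergic markers had a higher mean in 3-D in 8 of 8 genes in both pairs, and 3DMono tags summed to 183 to 1494 CPM of them, 2DMono tags to 159.7 to 548, 3DFusi tags to 105 to 1466 and 2DCocu tags to 49.5 to 108 CPM. Muscle markers also had a higher mean in 3-D in 8 of 8 genes in both pairs, summing to 51.7 to 3031 CPM in 3DMono against 60.3 to 546 CPM in 2DMono, and to 52.8 to 2420 CPM in 3DFusi against 54.1 to 91.2 CPM in 2DCocu. Cycling markers were higher in 7 of 8 in 3DMono (435 to 612 against 366 to 513 CPM) and 8 of 8 in 3DFusi (176 to 1219 against 227 to 405 CPM). The share of cycling-like cells did not follow these markers. It was mostly lower in 3DMono, at 10.9 to 15.9% against 14.3 to 24.9% in 2DMono, with overlap. In joined cultures it was 1.47 to 22.5% in 3DFusi and 7.40 to 13.02% in 2DCocu, also with overlap. In 3DMono neural crest or Schwann markers were higher in 7 of 8, at 6.80 to 18.6 against 4.97 to 9.63 CPM, and astrocyte markers lower in 7 of 8. In 3DFusi dopaminergic neuron markers were higher in 7 of 8, and astrocyte markers higher in 5 of 8. The part of the class mix in these differences was not tested over whole tags, and values within neuron classes are given further on.

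**Figure D2:**
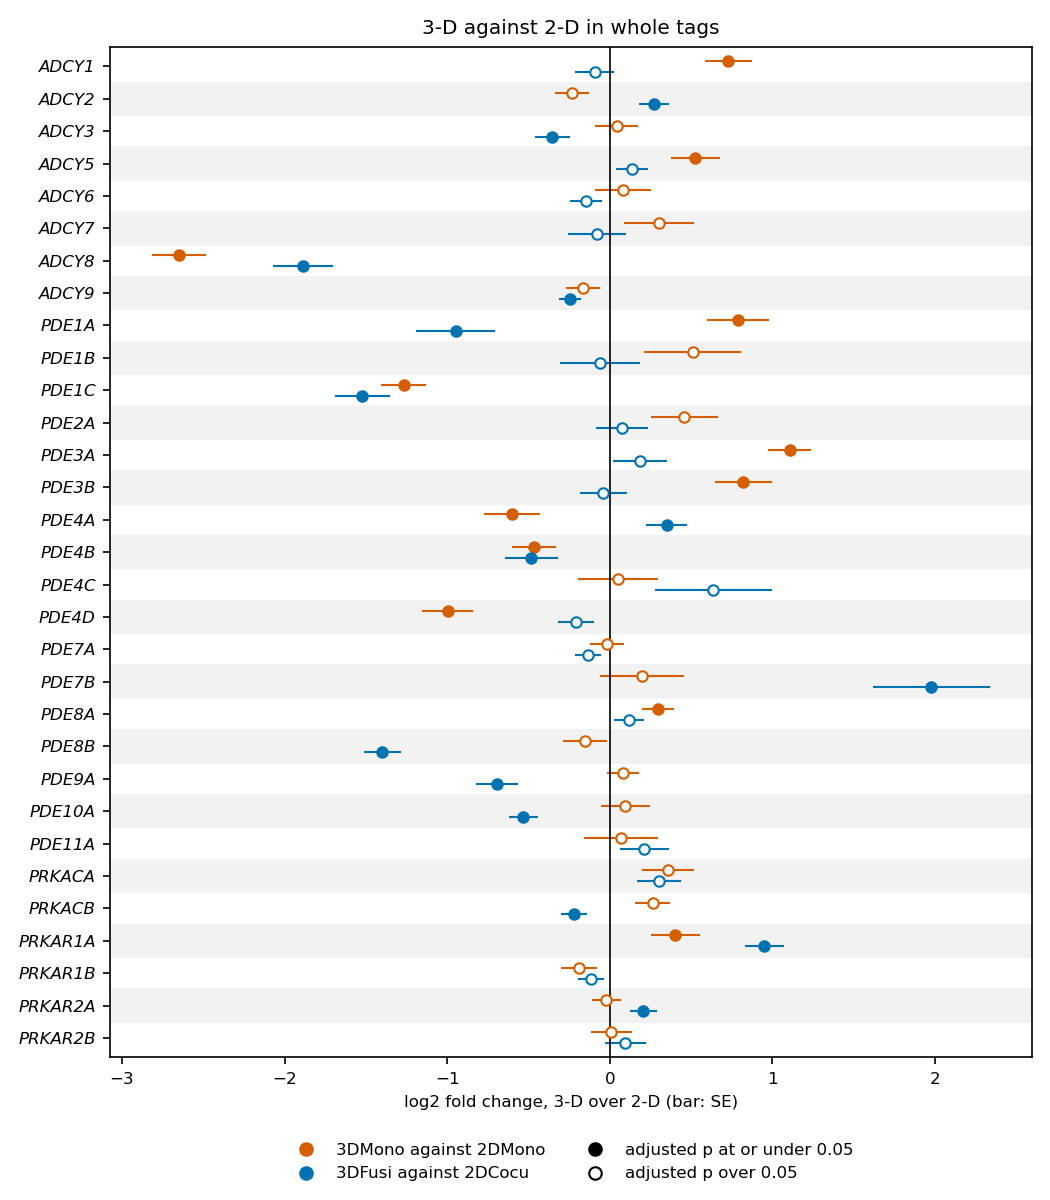
Log2 fold change of each tested member between 3DMono and 2DMono (6 and 6 tags) and between 3DFusi and 2DCocu (10 and 12 tags), with standard errors. Filled points passed an adjusted p of 0.05 in edgeR. ADCY8 and PDE1C lie below 0 in both, at -2.65 and -1.89 and at -1.27 and -1.52, and PDE1A lies on opposite sides.

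Genes upstream and downstream of the members were followed in 6 lists. Together 29 of 72 tested passed in 3DMono and 35 of 75 in 3DFusi, or 40.3% and 46.7%, near the shares of all genes given above. Of the G protein genes, 1 higher and 0 lower of 11 tested passed in 3DMono and 4 higher and 2 lower of 11 tested in 3DFusi. Of the dopamine, opioid and adenosine receptor genes the counts were 1 higher and 3 lower of 8 tested and 2 higher and 2 lower of 9 tested. The kappa opioid receptor OPRK1 fell in both (-1.76 and -1.72), as did the adenosine receptor ADORA1 (-1.32 and -1.85), and the mu opioid receptor OPRM1 rose in both (0.64 and 1.45). Among inhibitors of protein kinase A and other effectors, 2 higher and 5 lower of 14 tested passed in 3DMono and 2 higher and 5 lower of 14 tested in 3DFusi. PKIB, which encodes a protein inhibitor of the kinase, fell by 3.04 ± 0.19 and 2.74 ± 0.19 in log2 units, and PRKX, a related kinase, fell by 0.79 and 1.04. For anchoring proteins the counts were 2 higher and 3 lower of 14 tested and 2 higher and 3 lower of 14 tested, and for substrates and CREB transcription 0 higher and 2 lower of 11 tested and 2 higher and 4 lower of 12 tested. ARPP21, a neuronal substrate of the kinase, fell in 3DMono by 1.98. Among the cyclic GMP enzymes 5 higher and 5 lower of 14 tested passed in 3DMono and 4 higher and 3 lower of 15 tested in 3DFusi. NOS1, the neuronal nitric oxide synthase, fell in 3DMono by 1.88, and GUCY1B1, a subunit of the nitric oxide receptor, rose by 1.29.

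Joined and single cultures differed in members in 2-D. The question was how 2DCocu differs from 2DMono, and 3DFusi from 3DMono, over Vehic and AcMor tags. In 2-D 14 of 31 members passed, 8 higher and 6 lower in 2DCocu, or 45.2%, where 30.3% of all 20916 genes passed, 14.8% higher and 15.5% lower. PDE8B ran at 54.9 to 76.5 CPM in 2DCocu and 15.2 to 25.0 CPM in 2DMono, with no overlap, and rose by 1.51 ± 0.13 (adjusted p = 1.7e-07, n = 8 and 4). PDE10A ran at 429.5 to 465 CPM against 224 to 303 CPM, also with no overlap, and rose by 0.65 ± 0.08 (adjusted p = 7.7e-06). PDE3A rose by 1.84 ± 0.14 (adjusted p = 4.8e-08), from 44.9 to 62.3 CPM to 156 to 301 CPM. ADCY7 and PDE1B rose by 0.94 ± 0.19 and 0.93 ± 0.26, PDE1A by 0.56 ± 0.14 and ADCY1 by 0.49 ± 0.13. PDE4A, PDE2A, PDE4D, PRKAR2B and PDE1C fell, by 0.68, 0.60, 0.55, 0.51 and 0.48. The other 2 called, named after their values were seen, were PDE8A at 0.43 and PDE7A at -0.29. ADCY2, ADCY5, ADCY8, PDE4B, PRKACB and PRKAR1B had 0.12, 0.12, -0.04, -0.26, 0.14 and -0.01 and did not pass. With Vehic tags alone 8 of the 14 calls were lost, those of ADCY1, PDE1A, PDE1B, PDE1C, PDE2A, PDE4A, PDE4D and PDE7A. The cell mix moved with the arrangement. GABAergic neuron-like cells made up 0 to 1.81% of cells in these 2DCocu tags and 7.89 to 21.2% in the 2DMono tags, and cells of the neuron-like class without either name made up 4.38 to 14.7% and 0.467 to 1.26%. The GABAergic, excitatory and cycling markers had a lower mean in 2DCocu in 8 of 8 genes each, and the ciliated or ependymal markers a higher one in 8 of 8. Their summed levels were 49.5 to 108 against 159.7 to 548 CPM for the GABAergic, 90.0 to 209 against 185 to 289.6 CPM for the excitatory, 227 to 389.7 against 366 to 513 CPM for the cycling and 226 to 407 against 147 to 262 CPM for the ciliated list. Neuron and muscle markers had a lower mean in 2DCocu in 7 of 8 genes each, and mesenchymal markers a higher one in 7 of 8. The part of this mix in the differences was not tested.

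In 3-D none of the 32 members passed between 3DFusi and 3DMono in edgeR, where 1.56% of all 23145 genes did. At an unadjusted p under 0.05 there were 14 members, or 43.8%, against 17.9% of all genes. DESeq2 called 9 members and 6.7% of all genes, and edgeR without a filter on low counts called 5 members and 1.43% of all genes. ADCY8 came nearest, at 16.2 to 33.7 CPM in 3DFusi and 9.78 to 15.8 CPM in 3DMono with no overlap, a change of 0.92 ± 0.21 (adjusted p = 0.051, n = 6 and 4). PDE1C had -0.82 ± 0.20 (adjusted p = 0.061), ADCY2 0.55 ± 0.14 (adjusted p = 0.071) and PDE1A -1.39 ± 0.40 (adjusted p = 0.1). ADCY1, ADCY5, PDE1B, PDE4B and PDE4D had -0.34, -0.31, 0.32, -0.36 and 0.14, and PDE10A, PRKACB, PRKAR1B and PRKAR2B had -0.37, -0.36, -0.06 and -0.26. The cell mix moved here too, with ciliated or ependymal-like cells at 6.74 to 13.4% in 3DFusi and 0.816 to 1.67% in 3DMono and mesenchymal-like cells at 4.14 to 27.8% and 2.34 to 7.26%. Mesenchymal and ciliated markers had a higher mean in 3DFusi in 8 of 8 genes each (551 to 1861 against 167 to 615 CPM and 200.4 to 357 against 83.5 to 223 CPM summed), and cycling and muscle markers a lower one in 8 of 8 (176 to 1219 against 471 to 612 CPM and 52.8 to 352 against 90.3 to 3031 CPM). Their part was not tested. With DESeq2 the adjusted p-values were 0.0021 for ADCY8, 0.0083 for PDE1C, 0.016 for ADCY2 and 0.017 for PDE1A. Same-numbered 3DFusi tags were also added up, giving n = 3 and 4. The edgeR adjusted p-values were then 0.12 for ADCY8, 0.13 for PDE1C, 0.16 for ADCY2 and 0.25 for PDE1A.

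PDE1A and PDE1C were higher in excitatory than in GABAergic neuron-like cells of the same tags, and ADCY2 was mostly lower. These classes are clusters of the same cells, so their difference is a description with no test. In excitatory neuron-like cells of 2DMono the excitatory markers summed to 559 to 677 CPM and the GABAergic markers to 9.12 to 33.5 CPM. In those of 3DFusi they summed to 401 to 1054 and 6.02 to 184 CPM, with up to 259 CPM of progenitor and 317 CPM of mesenchymal markers. In GABAergic neuron-like cells the GABAergic markers summed to 1929.8 to 2961 CPM in 2DMono and the excitatory markers to at most 39.6 CPM. PDE1A had lowest, median and highest levels of 1934, 2318 and 2549.7 CPM in excitatory and 20.5, 33.8 and 44.3 CPM in GABAergic neuron-like cells of 3DMono. It was higher in the excitatory class in 6 of 6 tags of 2DMono, 6 of 6 of 3DMono and 10 of 10 of 3DFusi, with median log2 differences of 3.43 (SD 0.84), 5.94 (SD 0.33) and 5.24 (SD 0.67). PDE1C was likewise higher in the excitatory class in all of these tags, by 2.84 (SD 0.70), 3.08 (SD 0.50) and 1.73 (SD 0.86). ADCY2 went the other way. In 2DMono it ran at 8.23, 9.42 and 16.1 CPM in excitatory and 418, 556 and 761 CPM in GABAergic neuron-like cells, with differences of -5.51 (SD 0.52) in 2DMono, -3.21 (SD 0.85) in 3DMono and -1.78 (SD 1.20) in 3DFusi, where 9 of 10 tags were higher in the GABAergic class. PDE4A differed by -4.20 (SD 1.02) in 2DMono, being higher in the GABAergic class in 6 of 6 tags, but by 0.63 (SD 1.03) in 3DMono, where 4 of 6 tags were higher in the excitatory class, and by -0.14 (SD 1.03) in 3DFusi. Among members with a mean of at least 10 CPM over both classes, 5 of 25 were higher in the excitatory class in every tag of 2DMono, 6 of 26 in 3DMono and 4 of 26 in 3DFusi. These are 20%, 23.1% and 15.4%, where 13.2%, 12.9% and 6.01% of all genes at that level were. In the GABAergic class 10, 3 and 0 members were higher in every tag, or 40%, 11.5% and 0%, where 15.2%, 19% and 7.91% of all genes were. The count of 10 depends on how the neurons are defined: with cells chosen by a marker gate in place of clusters, 3 of 26 members in 2DMono were higher in the GABAergic class in every tag, or 11.5%, where 11.3% of all genes were.

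Some members had a high level in single neuron clusters. ADCY2 had a median of 785 CPM over the 18 tags of the GABAergic neuron-like cluster 14, where 2DMono tags ran from 422 to 776 CPM and 3DFusi tags from 793 to 1282 CPM. PDE1A had 2058 CPM in cluster 1, the excitatory neuron-like cluster of the organoids. Cluster 17, neuron-like and led by the glycine transporter SLC6A5 and by PAX2, had 199 CPM of ADCY8, 181 CPM of PDE3A and 932 CPM of PDE10A. PDE10A had 899.7 and 1009 CPM in the GABAergic neuron-like cluster 24 of 2 3DProto2Xia tags and 775 CPM in that of 1 3DProto1For tag. PDE7B, low in most neuron clusters, had 29.2 CPM in cluster 8, the GABAergic neuron-like cluster of 2DProto3Wu.

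**Figure D3:**
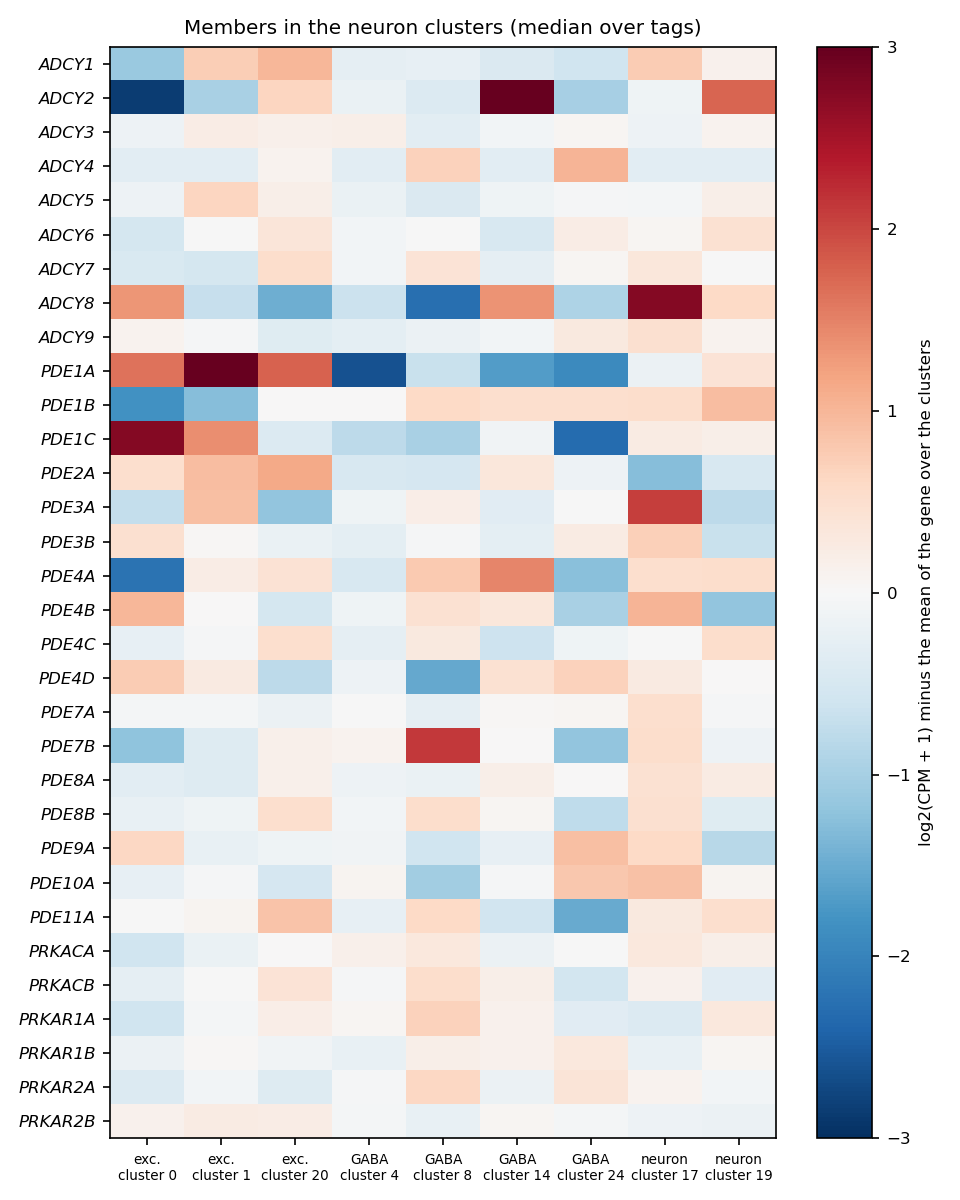
Members across the 9 neuron clusters, as log2(CPM + 1) of the median over tags minus the gene's mean over clusters, with the colour scale ending at -3 and 3. Red squares mark clusters where a member is high, such as PDE1A at 2058 CPM in cluster 1 and ADCY2 at 785 CPM in cluster 14.

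Within excitatory neuron-like cells, members differed between 3-D and 2-D cultures in both pairs, with ADCY1, ADCY2, PDE1A and PDE3A higher and ADCY8, PDE1C and PDE4B lower in 3-D. In single cultures 14 of 27 members passed, 9 higher and 5 lower in 3DMono, or 51.9%, where 30.4% of all 12707 genes passed, 15.7% higher and 14.7% lower. In joined cultures 13 of 25 passed, 7 higher and 6 lower, or 52.0%, where 41.9% of 10109 genes passed, 22.2% higher and 19.7% lower. Different clusters hold the class: cluster 0 holds 99.8% of it in 2DMono and 99.4% in 2DCocu, and cluster 1 holds 99.1% in 3DMono and 93.4% in 3DFusi. PDE1A ran at 1934, 2318 and 2549.7 CPM in 3DMono and 367, 574 and 771 CPM in 2DMono, and rose by 1.93 ± 0.15 (edgeR, adjusted p = 9.1e-09). In joined cultures it ran at 892, 1856 and 2140.4 CPM in 3DFusi and 488, 692 and 872 CPM in 2DCocu, and rose by 1.38 ± 0.12 (adjusted p = 4.9e-10), the reverse sign of the whole tags. The groups did not overlap in either pair. The excitatory neuron-like share of cells was 2.78 to 19.0% in 3DFusi and 3.72 to 29.5% in 2DCocu.

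ADCY1 ran at 128, 167 and 225 CPM in excitatory neuron-like cells of 3DFusi and 23.8, 43.6 and 62.8 CPM in those of 2DCocu. No 3DFusi tag was as low as any 2DCocu tag, and the rise was 1.98 ± 0.12 (adjusted p = 3.9e-13). In single cultures it was 1.72 ± 0.20 (adjusted p = 2.5e-06). ADCY2 rose by 3.00 ± 0.30 in joined cultures (adjusted p = 4e-08), from 2.43 to 21.6 CPM to 31.3 to 179 CPM, and by 1.59 ± 0.21 in single cultures (adjusted p = 9e-06). The GABAergic markers in this class summed to a median of 46.1 CPM in 3DFusi and 11.04 CPM in 2DCocu. In single cultures the median was 46.2 CPM in 3DMono and 18.7 CPM in 2DMono. The part of these markers in the ADCY2 rises was not tested. ADCY8 fell by 2.81 ± 0.28 and 1.33 ± 0.33 on the log2 scale (adjusted p = 3.3e-07 and 0.0025). In joined cultures it ran at 5.06 to 104 CPM in 3DFusi and 64.4 to 198 CPM in 2DCocu, with overlap, and the call was lost with Vehic tags alone (adjusted p = 0.55). PDE1C fell by 1.43 ± 0.15 and 1.29 ± 0.17 (adjusted p = 6e-07 and 1.1e-06). PDE4B ran at 289.7, 336 and 432 CPM in 3DMono and 1085, 1313 and 1430.4 CPM in 2DMono, with no overlap, and fell by 1.98 ± 0.12 (adjusted p = 7.4e-11). In joined cultures it fell by 0.83 ± 0.12 (adjusted p = 1.5e-06) with overlap. PDE3A rose by 1.53 ± 0.13 and 1.25 ± 0.29, and ADCY5 by 0.69 ± 0.13 and 0.90 ± 0.11. PDE4A, low in this class at 0 to 3.13 CPM in 2DMono, was at 6.39 to 22.6 CPM in 3DMono, a change of 2.69 ± 0.34. That change rests on 2DMono levels near the floor. In single cultures PDE2A rose by 0.85 and PDE4D fell by 0.82, while PDE4D had -0.05 in joined cultures. In joined cultures PDE9A fell by 0.99, and PRKAR1A and PRKACA rose by 0.62 and 0.57. PDE10A, PRKACB, PRKAR1B and PRKAR2B had 0.24, 0.53, 0.11 and 0.12 in single cultures, of which PRKACB passed, and 0.09, 0.18, 0.20 and 0.17 in joined ones, where none of the 4 passed. With Vehic tags alone 5 of the 14 calls in single cultures were lost (ADCY3, ADCY5, PDE2A, PDE4D and PDE9A). In joined cultures 5 of the 12 that could be fitted were lost (ADCY8, ADCY9, PDE3B, PDE4B and PRKAR1A). With same-numbered 3DFusi tags added up 13 of 28 members passed in the joined cultures, where 31.5% of all genes did, without PRKACA (adjusted p = 0.061) and with PDE4A (2.62 ± 0.41, adjusted p = 1.9e-05). PDE4A was near the floor in 2DCocu, at 0 to 3.82 CPM, against 1.58 to 14.5 CPM in 3DFusi tags.

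The 2 tags of 2DProto4Nic, a 2-D arrangement, also had excitatory neuron-like cells in cluster 1, so the members can be seen in that cluster in 2-D. There PDE1A ran at 1647 to 1687 CPM, against 1943 to 2629 CPM in cluster 1 of 3DMono and 367 to 771 CPM in cluster 0 of 2DMono. ADCY1 ran at 190.3 to 253 CPM, against 85.3 to 156 CPM and 16.0 to 45.2 CPM, and ADCY8 at 17.4 to 27.4 CPM, against 2.98 to 16.1 CPM and 37.5 to 81.9 CPM. Other Proto tags did not share this order. PDE1A was at 396 CPM in cluster 1 of 1 3DProto1For tag and at 209 CPM in that of 1 3DProto2Xia tag, and ADCY1 ran at 183 to 189 CPM in cluster 20, the excitatory neuron-like cluster of 2DProto2Fjo. PDE4B lay between, at 776 to 912 CPM against 294 to 434 CPM and 1085 to 1430.4 CPM. ADCY2 did not follow, at 11.2 to 14.3 CPM against 20.7 to 44.4 CPM and 8.26 to 16.1 CPM. Format and cluster cannot be told apart in the 4 treated arrangements.

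In GABAergic neuron-like cells 9 members were lower and 2 higher in 3DMono than in 2DMono. These 11 of 24 tested make 45.8%, where 21.8% of 8629 genes passed, 7.95% higher and 13.8% lower. Cluster 14 holds 96.1% of the class in 2DMono and cluster 4 holds 85.7% in 3DMono. 2DCocu had too few such cells for a test. ADCY8 fell by 2.37 ± 0.26 on the log2 scale (adjusted p = 4.7e-06), from 108 to 205 CPM to 11.9 to 69.8 CPM, and PDE1C by 1.40 ± 0.22 (adjusted p = 0.00012). PDE4A ran at 3.23, 8.39 and 17.8 CPM in 3DMono and 28.1, 48.6 and 66.2 CPM in 2DMono, with no overlap, and fell by 2.40 ± 0.27 (adjusted p = 2e-06). ADCY2 ran at 134, 241 and 439.7 CPM in 3DMono and 418, 556 and 761 CPM in 2DMono, and fell by 1.33 ± 0.22 (adjusted p = 0.00039). Inside cluster 14 alone the order was the reverse, at 952 to 1082 CPM in the 3 3DMono tags with such cells and 422 to 776 CPM in the 6 2DMono tags, while cluster 4 of 3DMono had 39.4 to 158 CPM. Cluster and format cannot be told apart in the class-level fall of ADCY2. ADCY8 kept its order inside cluster 14, at 57.2 to 78.8 CPM in 3DMono and 109.5 to 214 CPM in 2DMono, as did PDE4D, at 1165 to 1474 CPM and 2139.5 to 2718 CPM, and PDE4A, at 18.5 to 28.1 CPM and 29.5 to 68.9 CPM. PDE4D, PDE1A, PDE4B, PDE2A and PDE7A also fell at class level, by 1.31, 1.19, 1.18, 0.97 and 0.42, and ADCY1 and PDE3B rose by 0.61 and 0.46. ADCY5, PDE10A, PRKACB, PRKAR1B and PRKAR2B had 0.20, 0.03, 0.07, -0.28 and -0.01 and did not pass. With Vehic tags alone 5 of the 11 calls were lost, those of ADCY1, ADCY2, PDE1A, PDE3B and PDE7A.

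The format difference itself differed between the 2 neuron classes for 10 of 28 members (35.7%), where 17.1% of 12406 genes passed, 6.73% positive and 10.4% negative, in an edgeR interaction of class and arrangement with the tag as a block. That test was added after the class results had been seen. Given as the GABAergic minus the excitatory log2 fold change, the difference was -5.35 ± 0.43 for PDE4A (adjusted p = 2.1e-09), -3.02 ± 0.38 for PDE1A (adjusted p = 8.1e-05), -2.96 ± 0.40 for ADCY2 (adjusted p = 0.00019) and -2.19 ± 0.25 for PDE3A (adjusted p = 3.2e-07). The value of PDE4A rests in part on excitatory levels near the floor in 2DMono (0 to 3.13 CPM). For ADCY2, the GABAergic neuron-like cluster 14 taken alone had the reverse order, as given above. Each class lies in different clusters in 2DMono and 3DMono, so cluster and format cannot be told apart in these values. Among the 10 that passed, PDE4B was the 1 member with a positive value, 0.81 ± 0.22 (adjusted p = 0.018), its fall being larger in the excitatory class. ADCY8 and PDE1C, lower in 3DMono in both classes, had 0.56 ± 0.26 and 0.01 ± 0.37 and did not pass (adjusted p = 0.15 and 1). PDE2A, ADCY1, PDE4D, PRKACB and PDE7A passed with -1.76, -1.11, -0.54, -0.49 and -0.44, and ADCY5, PDE10A, PRKAR1B and PRKAR2B had -0.51, -0.22, -0.36 and -0.16 and did not pass.

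**Figure D4:**
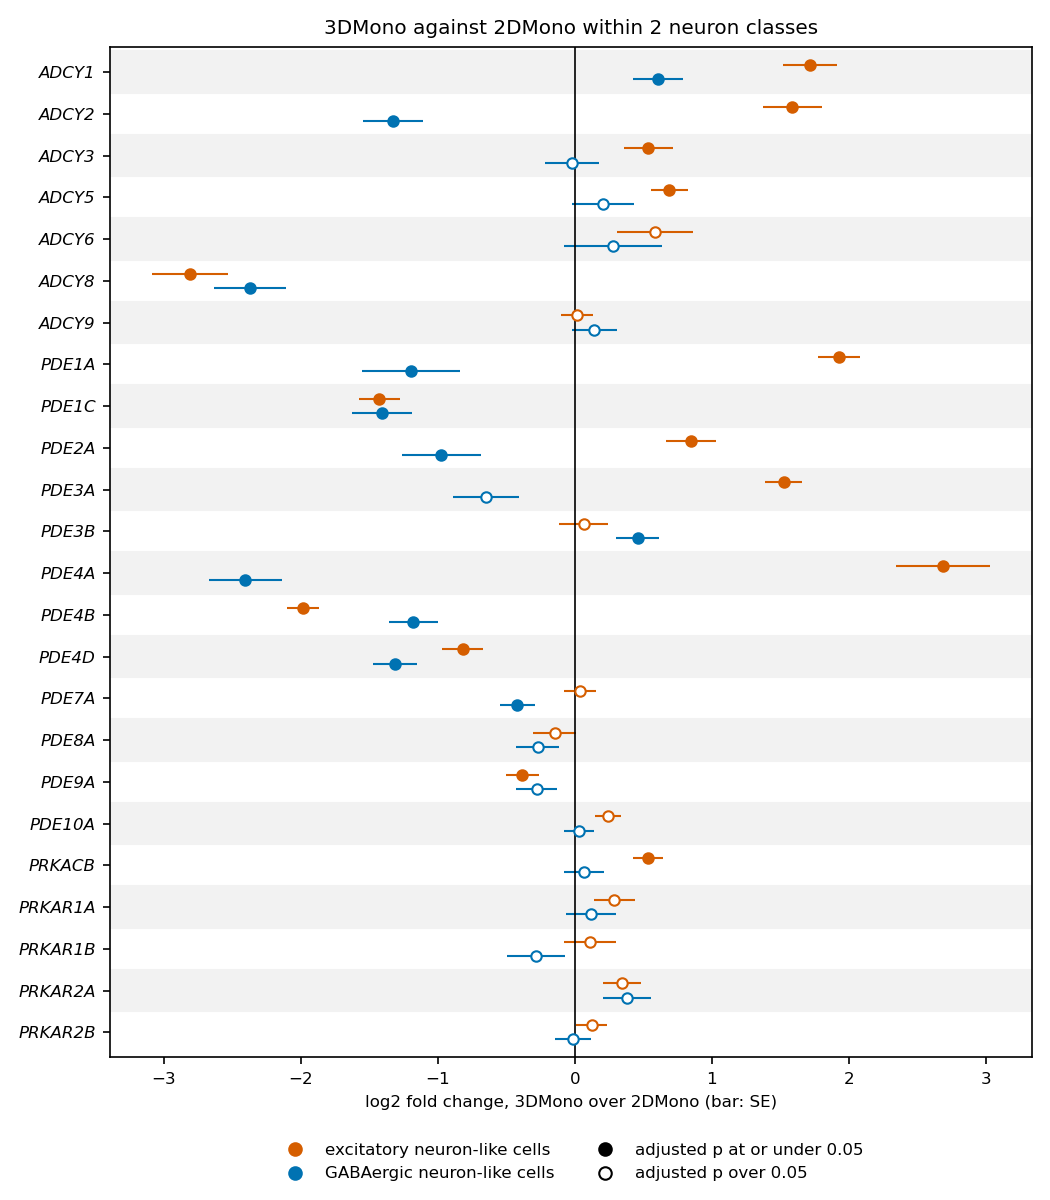
Log2 fold change of members between 3DMono and 2DMono in excitatory neuron-like cells and in GABAergic neuron-like cells, fitted separately with edgeR. ADCY8 and PDE1C are lower in 3DMono in both classes. PDE1A (1.93 in excitatory and -1.19 in GABAergic neuron-like cells), ADCY2 (1.59 and -1.33) and PDE4A (2.69 and -2.40) have opposite signs. Each class lies in different clusters in 2DMono and 3DMono, and inside GABAergic neuron-like cluster 14 alone ADCY2 was higher in 3DMono.

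Several linked genes differed in the same class fits. In excitatory neuron-like cells 24 of 57 tested passed in single and 27 of 52 in joined cultures. These are 42.1% and 51.9%, against 30.4% and 41.9% of all genes. In GABAergic neuron-like cells 14 of 45 passed, 1 higher and 13 lower, or 31.1% against 21.8% of all genes. In excitatory neuron-like cells GNAL, the stimulatory G protein subunit of striatal and olfactory neurons, rose by 1.41 ± 0.20 in single and 2.12 ± 0.21 in joined cultures, and the inhibitory subunit GNAI1 by 1.35 and 1.01. GUCY1A1 and GUCY1B1, the 2 subunits of soluble guanylyl cyclase, rose by 2.52 and 3.08 in single and 3.11 and 4.13 in joined cultures. PKIB fell by 3.25 and 2.82, and PRKX by 1.63 and 1.87. In GABAergic neuron-like cells of 3DMono PKIB fell by 3.69 and the anchoring protein SPHKAP by 2.99.

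Members differed between treated and Vehic tags in 2DCocu. PDE3B, PDE2A, PRKAR2B and PDE1C were higher and PDE3A and ADCY2 lower in AcCoc tags, and PDE3B and ADCY8 higher in AcMor tags. For AcCoc 6 of 31 members passed (4 higher, 2 lower), or 19.4%, where 6.09% of 21032 genes passed, 3.6% higher and 2.49% lower. For AcMor 2 of 31 passed, both higher, or 6.45%, where 0.975% of genes passed, 0.685% higher and 0.29% lower. Both comparisons share the 4 Vehic tags, and AcCoc and AcMor were not tested against each other. PDE3B ran at 117, 125, 133 and 129.6 CPM in the 4 AcCoc tags, 133, 112, 113 and 93.2 in the AcMor tags and 84.8, 75.3, 52.4 and 94.9 in the Vehic tags. Every AcCoc tag exceeded every Vehic tag, and the log2 fold changes were 0.76 ± 0.13 for AcCoc (edgeR, adjusted p = 0.0041) and 0.59 ± 0.13 for AcMor (adjusted p = 0.044). PDE1C ran at 362, 407, 489 and 499 CPM in AcCoc, 372, 344, 408 and 315 in AcMor and 321, 332, 304 and 334 in Vehic tags, again with every AcCoc tag above every Vehic tag, and rose under AcCoc by 0.49 ± 0.11 (adjusted p = 0.014). PRKAR2B, a regulatory subunit enriched in brain, ran at 65.9, 77.3, 85.5 and 79.1 CPM in AcCoc and 59.1, 51.2, 43.8 and 65.4 in Vehic tags, with no overlap, and rose by 0.53 ± 0.13 (adjusted p = 0.021).

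ADCY2 ran at 149, 127, 134 and 108 CPM in AcCoc and 189, 158, 186 and 200.2 in Vehic tags, with no overlap, and fell under AcCoc by 0.46 ± 0.11 on the log2 scale (adjusted p = 0.02). PDE3A ran at 197, 170.2, 109 and 122 CPM in AcCoc and 219, 192, 244 and 301 in Vehic tags, 1 AcCoc tag overlapping, and fell by 0.65 ± 0.17 (adjusted p = 0.031). PDE2A, which cyclic GMP stimulates, ran at 13.3, 14.5, 25.0 and 22.5 CPM in AcCoc and 11.4, 10.8, 14.4 and 10.1 in Vehic tags, 1 AcCoc tag lying inside the Vehic range, and rose by 0.72 ± 0.21 (adjusted p = 0.048). The PDE2A and PDE3A calls were each lost in 8 of 15 alternative settings. ADCY8 ran at 118, 90.7, 97.7 and 73.8 CPM in AcMor and 67.5, 61.5, 52.6 and 79.5 in Vehic tags, with 1 AcMor tag inside the Vehic range, and rose by 0.57 ± 0.13 (adjusted p = 0.044), a call lost in 9 of 15 settings, as was that of PDE3B under AcMor. The other members followed whatever their values did not pass. ADCY1, ADCY5 and ADCY8 had 0.39, 0.19 and 0.28 under AcCoc, and ADCY1, ADCY2 and ADCY5 had 0.18, -0.32 and 0.14 under AcMor (SE 0.11 to 0.17). PDE1A, PDE1B, PDE4B, PDE4D and PDE10A had 0.02, -0.07, 0.16, 0.38 and 0.09 under AcCoc and 0.03, -0.02, 0.11, 0.32 and 0.05 under AcMor, and PDE1C had 0.19 under AcMor. PRKACB and PRKAR1B had 0.19 and -0.24 under AcCoc and 0.06 and -0.25 under AcMor, where PRKAR2B had 0.47. Without 2DCocu AcCoc replicate 3 or without Vehic replicate 3 the AcCoc count fell to 2, and without AcCoc replicate 4 to 3. The AcMor count was 0 with any of 7 tags left out and 4 without Vehic replicate 4.

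The neuron content of 2DCocu tags moved with treatment. Excitatory neuron-like cells made up 22.7 to 29.5% of cells in AcCoc tags, 21.0 to 25.1% in AcMor tags and 3.72 to 8.62% in Vehic tags. The 8 excitatory markers summed to 166 to 226, 164 to 209 and 90.0 to 124 CPM, and 8 of 8 had a higher mean in both treatments. Cells of the neuron-like class made up 11.8 to 14.1%, 12.5 to 14.7% and 4.38 to 9.57%. The neuron markers had a higher mean in 8 of 8 genes in both treatments. Ciliated or ependymal-like cells went the other way, at 0.634 to 1.89% in AcCoc, 0.605 to 2.39% in AcMor and 2.54 to 4.14% in Vehic tags, and 7 of 8 of their markers had a lower mean in each treatment, summing to 212 to 327, 226 to 324 and 313 to 407 CPM. The GABAergic markers were higher in 8 of 8 in both treatments, at 93.8 to 101, 81.1 to 108 and 49.5 to 82.1 CPM. Oligodendrocyte lineage markers were lower in 8 of 8 under AcCoc and 7 of 8 under AcMor, at 25.2 to 33.2, 31.0 to 44.0 and 44.4 to 50.3 CPM. Choroid plexus markers were lower in 7 of 8 in both, at 77.4 to 119, 77.7 to 168 and 108 to 182 CPM, as were muscle markers. Mesenchymal markers were lower in 7 of 8 under AcCoc, at 545 to 1438 against 1093 to 1946 CPM, and in 4 of 8 under AcMor, and cycling markers in 7 of 8 under AcMor. Cells of unnamed clusters made up 37.9 to 45.9%, 41.6 to 47.6% and 63.6 to 70.3%. In ciliated or ependymal-like cells of 3DFusi the pooled levels of ADCY2 and PDE3A were 447 and 435 CPM. The part of these classes in the treatment differences was not tested. Leaving out the excitatory neuron-like cells takes away changes inside them and counts as well, so it cannot give their part. The neuron-like class stayed in. The calls did not hold when excitatory neuron-like cells were left out, an alternative added after the data were seen: 0 of 31 members passed for either treatment in edgeR, 7 and 4 members (22.6% and 12.9%) having an unadjusted p under 0.05, against 13.01% and 8.59% of all genes, with 46 genes called under AcCoc and 0 under AcMor. PDE3B then had 0.45 ± 0.12 under AcCoc (adjusted p = 0.14), PDE1C 0.08 ± 0.10 (adjusted p = 0.79) and ADCY2 -0.24 ± 0.11 (adjusted p = 0.34). PDE3A had -0.46 ± 0.15 (adjusted p = 0.21), PRKAR2B 0.31 ± 0.13 (adjusted p = 0.31) and PDE2A 0.29 ± 0.23 (adjusted p = 0.63), all with the sign they had over whole tags. Under AcMor ADCY8 had 0.43 ± 0.13 (adjusted p = 0.36) and PDE3B 0.35 ± 0.13 (adjusted p = 0.46). Inside excitatory neuron-like cells 0 of 25 members passed for either treatment in edgeR, with 5 members (20%) at an unadjusted p under 0.05 for each, against 8.96% and 9.04% of all genes, and 1 called for each by DESeq2, and 0.117% and 0.31% of 11938 genes passed. There PDE1C had 0.55 ± 0.13 under AcCoc (adjusted p = 0.099) and ADCY8 0.77 ± 0.18 under AcMor (adjusted p = 0.057). The DESeq2 calls were these same 2 genes, at 0.015 and 0.014. The others of the followed members tested there lay between -0.48 (PRKAR1B) and 0.33 (ADCY1) under AcCoc and between -0.35 (PRKAR1B) and 0.37 (ADCY1) under AcMor.

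**Figure D5:**
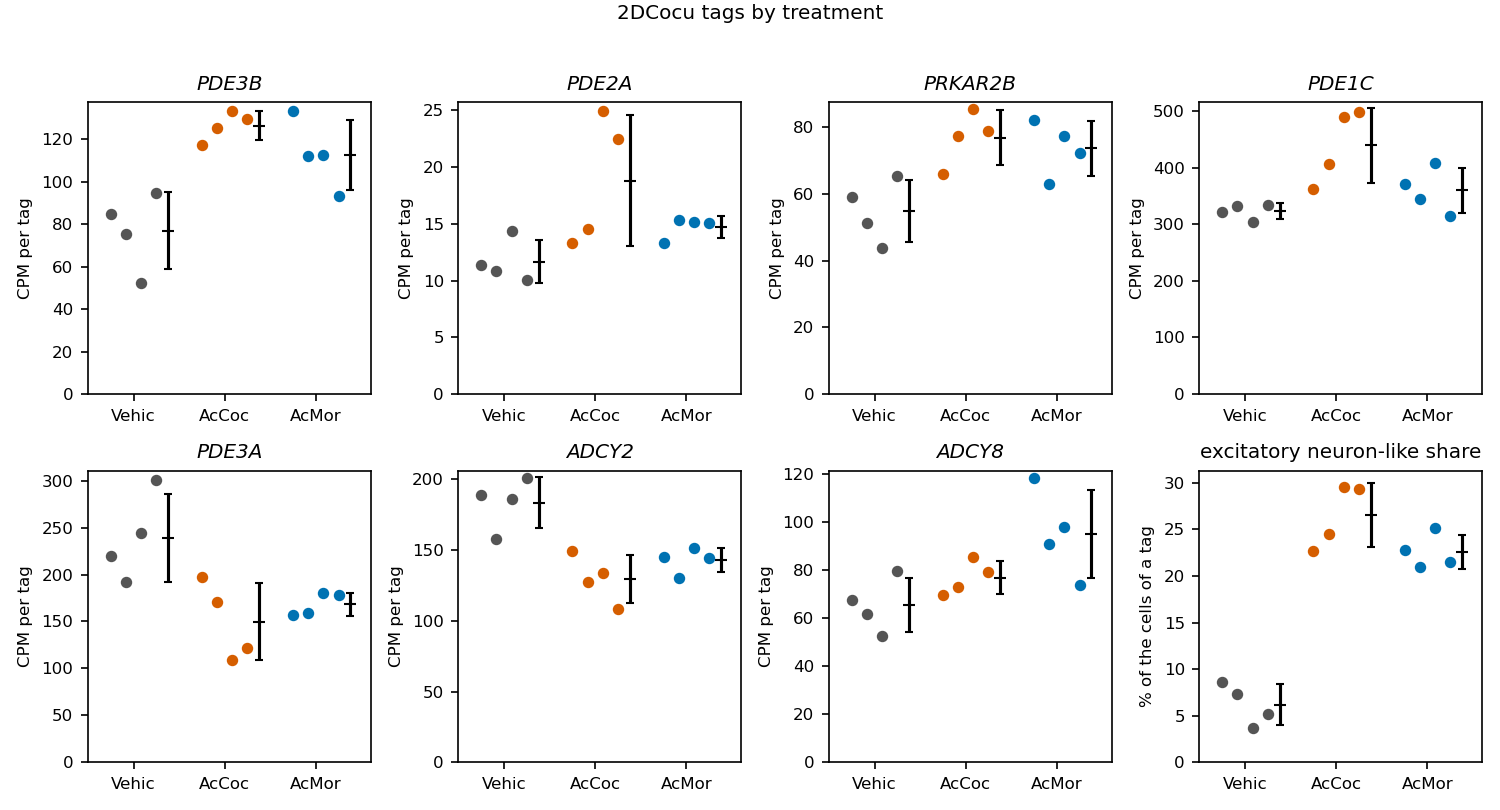
Level of the 7 members called in 2DCocu and the excitatory neuron-like share of cells, by treatment. Points are tags (4 per treatment), bars the mean and whiskers the SD. PDE3B is at 117 to 133 CPM in AcCoc tags and 52.4 to 94.9 CPM in Vehic tags, and the excitatory neuron-like share is 22.7 to 29.5% and 3.72 to 8.62%.

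Linked genes were called in 2DCocu as well, 8 of 75 tested under AcCoc and 4 of 75 under AcMor, or 10.7% and 5.33%, where 6.09% and 0.975% of all genes passed. Over all genes 46 and 0 calls were left without excitatory neuron-like cells. Of the anchoring proteins 4 higher and 1 lower of 14 tested passed under AcCoc, with SPHKAP at 0.80, AKAP9 at 0.48, WASF1 at 0.44 and AKAP13 at -0.36, and SPHKAP also rose under AcMor by 0.99. The adenosine receptor ADORA2B fell by 0.95 under AcCoc and 0.83 under AcMor, and PRKG2, a kinase activated by cyclic GMP, rose by 1.21 and 0.99. No G protein gene and no effector in the lists passed.

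In 3DFusi 0 of 32 members passed for AcCoc or AcMor in edgeR, with 1 and 0 members (3.13% and 0%) at an unadjusted p under 0.05, against 1.66% and 0.748% of all genes, and 0 called by DESeq2. Of all 23676 genes 0 passed. Within excitatory neuron-like cells of 3DFusi 0 of 26 members passed, 2 and 1 (7.69% and 3.85%) having an unadjusted p under 0.05, against 3.13% and 1.84% of all genes. Within GABAergic neuron-like cells 0 of 30 passed, with 3 and 0 (10% and 0%) against 2.96% and 1.59%, and DESeq2 called 0 in each class. Over whole 3DFusi tags PDE1B, near the floor, ran at 0.891, 2.62 and 2.43 CPM in AcMor and 3.17, 3.86 and 5.97 CPM in Vehic tags. There the 13 members followed whatever their values lay between -1.09 (PDE1B) and 0.27 (PDE10A) under AcCoc and under AcMor PDE1B was again the lowest and the others lay between -0.40 (ADCY8) and 0.33 (PDE4B). In excitatory neuron-like cells they lay between -1.23 (ADCY8) and 0.23 (PDE10A) and between -0.58 (PDE4D) and 0.27 (PDE1A), and in GABAergic neuron-like cells between -0.62 (ADCY8) and 0.49 (PDE1C) and between -0.50 (ADCY5) and 0.58 (PDE1C). In 2DMono and 3DMono, with 2 tags a treatment, 0 of 31 members and 0 genes passed in edgeR for AcDop or AcMor. Members at an unadjusted p under 0.05 numbered 5 for AcDop and 1 for AcMor in 2DMono, or 16.1% and 3.23% against 2.42% and 6.42% of all genes, and 0 for both in 3DMono, against 3.35% and 8.71% of all genes. DESeq2 called 1 member for AcDop in 2DMono and 0 otherwise, and of all genes 0.067% for AcDop and 0.0979% for AcMor in 2DMono and 0.0769% and 0.787% in 3DMono. The largest value was PDE10A under AcDop in 2DMono, at 438 and 608 CPM in the AcDop tags and 224 and 251 in the Vehic tags, a change of 1.17 ± 0.20 (edgeR, adjusted p = 0.72). It was the member that passed with DESeq2 (adjusted p = 0.0012) and it passed without a filter on low counts (adjusted p = 2.6e-05). That difference was not seen inside the neuron classes. In excitatory neuron-like cells of 2DMono PDE10A was at 363 and 390 CPM in AcDop and 355 and 410 in Vehic tags. In GABAergic neuron-like cells it was at 470 and 511 CPM in AcDop and 489 and 415 in Vehic tags. Over whole 3DMono tags its levels were 433 and 422 CPM in AcDop and 378 and 374 in Vehic tags. The other followed members lay between -0.19 (PRKAR1B) and 0.61 (PDE4D) under AcDop in 2DMono, and all of them between -0.21 (PRKAR1B) and 0.45 (PDE4B) under AcMor. In 3DMono they lay between -0.22 (ADCY8) and 0.21 (ADCY5) under AcDop and between -0.63 (PDE1A) and 0.34 (ADCY5) under AcMor.

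Among the Proto tags, 2DProto4Nic had far more PDE10A than any other tag (chromosome 6, 165327289 to 165988052 on GRCh38.p14). It reached 3296 and 3723 CPM in the 2DProto4Nic tags, against 315 and 294 in 2DProto2Fjo and 205 and 255 in 2DProto3Wu. These are descriptions of 2 or 3 tags each. The 3DProto1For tags had 265, 223 and 886 CPM and the 3DProto2Xia tags 982, 269.9 and 839 CPM. Without 3DProto1For3 and 3DProto2Xia2, which go against their names, the levels were 265 and 223 against 982 and 839 CPM. Those tags were set apart by their expression in these same data, so this split is no separate evidence. Inside 2DProto4Nic, PDE10A was at 5528 and 6231 CPM in cluster 29, which is cycling-like, 5168 and 5980.1 in cluster 30, which is progenitor-like, and 4388 and 4347 in the unnamed cluster 28. The same clusters 29 and 30 had 349 to 365 CPM in the 2 other tags and 307 to 363 CPM in the 2 other tags. It was high outside progenitors too. Mesenchymal-like cluster 26 had 1086 and 1164 CPM in 2DProto4Nic and 215 to 438 CPM in the 8 other tags, and the unnamed cluster 16 had 1643 and 1742 CPM and 339 to 517 CPM in the 11 other tags. In excitatory neuron-like cluster 1 it had 676 and 846 CPM, inside the range of 334 to 903 CPM in the 17 other tags. GABAergic neuron-like cluster 14 had 1102 CPM in 1 tag, inside the range of 288 to 1225 CPM in 17 other tags. Neuron-like cluster 19 had 1579 and 1403 CPM, against 318 to 741 CPM in 6 other tags. Unnamed cluster 5 had 1827 and 2664 CPM, against 250 to 979 CPM in 18 other tags. The part of free RNA in the lower clusters was not tested. The 2DProto4Nic tags were also high in PDE3A, at 678 and 614 CPM, and PDE7B, at 159 and 153 CPM. PDE1A was lowest in the 2DProto3Wu tags, at 94.0 and 107 CPM, and ADCY8 was lowest there too, at 3.75 and 6.04 CPM. These tags held 0 excitatory neuron-like cells and 66.5 and 67.5% GABAergic neuron-like cells. ADCY8 was higher in the GABAergic than in the excitatory class in 6 of 6 tags of 2DMono, 6 of 6 of 3DMono and 3 of 10 of 3DFusi.

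Correlations of members among the tags of a group lay on both sides of 0. Over the 34 treated tags, after the mean of each arrangement and treatment was removed from log2(CPM + 1), the 26 members with a mean of at least 10 CPM gave 325 pairs with a median Pearson correlation of 0.01, and 3.69% of them had an absolute value of at least 0.7. Over all pairs of the 10670 genes at that level the median was 0.07 and the share 2.67%. Tags share an experiment and differ in class mix and depth, so these values are descriptions. The highest pairs were PDE7A with PRKACB at 0.86, PDE3B with PDE4B at 0.83, PDE3B with PDE7A at 0.82 and PDE1A with PDE1C at 0.79. The lowest were PDE4B with PRKAR2A at -0.74 and PDE2A with PDE3A at -0.74. With the excitatory neuron-like share of cells, PDE1A correlated at 0.70, PDE1C and PRKAR2B at 0.61 and 0.61, ADCY1 at 0.54 and PDE7B at -0.62.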

How the data were processed

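Poly(A) RNA of H1-derived cultures was barcoded by split-pool rounds after papain dissociation, per the labels' protocols. The deposited matrix holds estimated counts per gene and cell, which the authors made with Salmon 1.7.0, alevin and Seurat 4.1.1 on hg38, per the submitters' processing notes. Of its entries, 54.3% are exactly whole (tolerance 0). How the authors filtered cells is not given in the sources used here; the lowest gene number per cell is 1006 and the highest mitochondrial share 10.0%. For each tag the counts of its cells were added up and rounded. Tags are the replicates, grouped by the letters in their names. The main test was the edgeR 4.0.16 quasi-likelihood test (filterByExpr, TMM, treatment as a covariate between arrangements) with Benjamini-Hochberg adjustment over all genes tested. Fold changes are edgeR's log2 values. Their standard errors were derived from the test, as the absolute log2 fold change divided by the square root of the F statistic. Cells were clustered with Python on 2000 variable genes without the members and linked genes (30 principal components, 20 neighbours, Leiden resolution 0.8). A cluster was named where at least 3 markers and 40% of a fixed list were enriched at least 2-fold, a rule set after the clusters had been seen. The 4200 cells (9.61%) called doublets were kept, and leaving them out was an alternative. Class sums needed at least 20 cells a tag.
 The members and lists were chosen with earlier results of these data known. The text names up to 10 called members a comparison, those with the largest absolute log2 fold change, always ADCY1, ADCY2, ADCY5, ADCY8, PDE1A, PDE1B, PDE1C, PDE4B, PDE4D, PDE10A, PRKACB, PRKAR1B and PRKAR2B where tested (by their range in treatment fits of 3DFusi, single cultures and neuron classes, where no member passed), and up to 4 called genes of a linked list. 2 names of the linked lists, AKAP2 and ICER, did not match a gene. Alternatives were DESeq2 1.42.0, no filter on low counts, doublets left out, Vehic tags alone, a coarser clustering, a marker gate, a replicate block and each tag left out. The interaction, the sums without excitatory neuron-like cells, the 3DFusi libraries added up by number and the left-out tags of the format comparisons were added after the data were seen. The scripts were tested on simulated data. Same-numbered 3DFusi tags deviated together over whole tags (correlations of 0.137 to 0.558 in 9 pairs). The main fits did not use these numbers. They were taken as pairs in the replicate block, and same-numbered tags were added up in another alternative. Same-numbered 2DCocu tags did not deviate together (-0.284 to 0.111 in 12 pairs). Promoters are RefSeq's, matched by symbol.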

Additional observations from a re-analysis of the deposited data

Results flagged for a closer look

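Among the 128 groups of 4 tags (each member in the 3 treatments of 2DCocu and in 3DFusi AcCoc), 6 held a tag whose gap to the others exceeded Dixon's 95% critical value, where chance flags about 1 in 20 groups. In 3DFusi AcCoc, replicate 1 had 655 CPM of PDE1A against 219 to 242 in the other 3 tags, and 244.5 CPM of PDE1C against 92.5 to 115 CPM. The tags numbered 1 of the other 2 treatments were also high in PDE1A, at 368 and 555 CPM, where the 3DFusi tags of other numbers ran from 134 to 248 CPM. The excitatory neuron-like share of AcCoc replicate 1, 15.8%, was within the range of the other 3 tags, 6.30 to 15.9%. Replicate 4 of that group had 6.26 CPM of PDE4C against 0.686 to 1.30 CPM. In 2DCocu AcMor, replicate 1 had 13.3 CPM of PDE2A against 15.0 to 15.3, replicate 4 had 62.2 CPM of PDE8B against 54.9 to 55.7, and replicate 3 had 37.97 CPM of PRKAR1B against 25.6 to 27.1.
 The difference between 3DMono and 2DMono differed between GABAergic and excitatory neuron-like cells for 10 members in the edgeR interaction. As GABAergic minus excitatory log2 fold changes these were -5.35 for PDE4A, -3.02 for PDE1A, -2.96 for ADCY2, -2.19 for PDE3A, -1.76 for PDE2A, -1.11 for ADCY1, -0.54 for PDE4D, -0.49 for PRKACB, -0.44 for PDE7A and 0.81 for PDE4B. PDE7A no longer passed without called doublets. PDE4A was near the floor in excitatory neuron-like cells of 2DMono. The 2 classes lie in different clusters in 2-D and 3-D, so cluster and format cannot be told apart.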

How the results depend on the processing

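Of 258 alternative counts of members, 222 stayed within 1.5 times the main count and 36 did not. Of 1026 alternative values of the 97 called member results, 897 stayed past the threshold, 128 did not and 1 changed sign: ADCY9 in excitatory neuron-like cells of 3DFusi against 2DCocu had 0.083 with Vehic tags alone (adjusted p = 0.89, edgeR). With Vehic tags alone, so with fewer tags, the counts were 6 for 3DMono against 2DMono, 8 for 3DFusi against 2DCocu, 6 for 2DCocu against 2DMono, 9 and 7 for the same comparisons of 3-D with 2-D in excitatory neuron-like cells, and 6 in GABAergic neuron-like cells. The shares of all genes called fell too, to 14.4%, 28.2%, 15.7%, 10.1%, 15.5% and 7.44%. DESeq2 called 9 and the unfiltered fit 5 members for 3DFusi against 3DMono, 1 and 2 for AcDop in 2DMono, 1 and 2 for AcCoc and 1 and 1 for AcMor in excitatory neuron-like cells of 2DCocu, where 6.7% and 1.43%, 0.067% and 0.093%, 0.561% and 0.491%, and 1.06% and 0.636% of all genes were called. The unfiltered fit called 1 for AcMor in 3DMono and 1 for AcCoc in excitatory neuron-like cells of 3DFusi (1.81% and 0.139% of all genes). The cause was not tested. With same-numbered 3DFusi tags added up the count for 3DFusi against 2DCocu was 9, over 4 libraries in place of 10. Without excitatory neuron-like cells the 2DCocu counts were 0 for AcCoc and 0 for AcMor. By the marker gate 4 of all 32 members, against 10, were higher in GABAergic neurons in every tag of 2DMono, and at the coarser resolution 1, against 0, in 3DFusi. Leaving out a tag gave 10 to 13 for 3DMono against 2DMono, 13 to 16 for 3DFusi against 2DCocu, 2 to 7 for AcCoc and 0 to 4 for AcMor in 2DCocu, 0 to 1 for AcDop in 2DMono, 0 to 1 for AcMor in 3DMono, and 0 to 0 for the other treatment counts.
 With the replicate block in 2DCocu, whose tags share only a number, the counts were 5 for AcCoc and 0 for AcMor, and in excitatory neuron-like cells 1 for AcMor. In 3DFusi, whose same-numbered tags deviated together, the replicate block gave 0 members, and over all genes 1 under AcCoc in excitatory neuron-like cells, against 0. Depth limits ADCY4, PDE1B and PDE4C, which were near the floor, and the single cultures have 2 tags per treatment.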

Other observations

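Outside neurons, members had levels of their own in the named classes of 3DFusi, given here as CPM pooled over the cells of all its tags, with no spread. Progenitor-like cells had 1115 CPM of PDE4B and 82.3 CPM of PDE4D, while excitatory neuron-like cells had 428 and 1471 CPM. PDE3A was at 428 CPM in progenitor-like and 435 CPM in ciliated or ependymal-like cells, against 39.3 CPM in GABAergic neuron-like cells. ADCY2 was at 447 CPM in ciliated or ependymal-like cells. PRKAR2B was at 33.4 CPM in mesenchymal-like, 33.9 CPM in progenitor-like and 154 CPM in excitatory neuron-like cells.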
